A study of Mus musculus with 24 samples.

Results

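This comparison set 3 arrays of the distal mandible of Tgfbr2 mutant mouse embryos against 3 arrays of the same piece from control litter mates, 6 of the 24 arrays of the series. The arrays were chosen by their titles, as mutant or control distal mandible, and every gene with a probe set of a single symbol entered. The series profiles the upper and lower jaw at embryonic day 14.5, each cut into a distal and a proximal end, in C57B6 embryos. Mice carrying Wnt1cre;Tgfbr2fl/+ were mated with Tgfbr2fl/fl mice, mutants were picked out by cleft palate and a defect of the calvaria, and the comparison is with litter mates. Their genotype is given only as control, so whether the controls carried Wnt1cre or a floxed allele is not stated. The label of the tissue is "Distal bone", and labelling for the Affymetrix Mouse430_2 array started from 5 µg of total RNA.

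Tgfbr2 encodes the type II receptor of TGF-beta. Ligand binding lets it phosphorylate a type I receptor, which activates Smad2 and Smad3 and, through them with Smad4, transcription. The Wnt1 promoter drives Cre in neural crest, which gives rise to the bone, cartilage, tendon and connective tissue of the mandible. Skeletal muscle fibres, surface epithelium, endothelium and macrophages of the jaw come from other lineages, so their Tgfbr2 gene was not targeted. TGF-beta signalling is known for its part in tendon formation, in the deposition of elastic and collagen matrix and in the growth of jaw cartilage.

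Some marker genes set the 6 arrays apart from the other pieces and others did not. Hand2, a transcription factor of the distal mandibular arch, read 12.19 to 12.98 on the log2 scale here, 9.48 to 10.23 in the proximal mandible and 5.27 to 7.39 in the 12 maxilla arrays. Dlx5 overlapped with the maxilla, at 10.89 to 11.21 here and 10.08 to 11.37 there, as did Dlx6, at 8.97 to 10.05 and 8.61 to 9.94. Hand1 overlapped with the proximal mandible, at 7.39 to 7.76 here and 7.19 to 7.68 there. Ibsp, which encodes the bone matrix protein bone sialoprotein, read 12.09 to 13.03, so the bone named in the label was present. It does not mark the piece, reading 11.69 to 13.52 in the maxilla and 13.55 to 14.30 in the proximal mandible. Within a group the root mean square difference of an array from the other arrays was 0.242 to 0.292 (log2), and none stood apart. Both Xist, the transcript of the inactive X chromosome, and the Y-linked Kdm5d were present in 4 of the 6 arrays. Control 1 had Xist at 13.32 with Kdm5d at 6.77, and control 3 had Xist at 6.56 with Kdm5d at 9.68. The labels do not say whether a sample pooled embryos, or whether replicates are separate litters, so p-values reflect only how far these samples spread, which may be technical.

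In the mutant distal mandible, 6 genes of muscle contraction, 5 of tendon and 3 of elastic fibres fell, led by Atp1b4, Ckm, Tnmd, Fmod and Fbln5. The ligand gene Tgfb2, 3 genes of the hypoxia list and 3 genes of stratified epithelium rose. In the main fit, without block or covariate, no gene of the bone, cartilage, tooth, cell cycle, BMP, Wnt, hedgehog or FGF lists passed. Members of some of these lists passed in alternative fits. In the cartilage list 15 passed as lower with the muscle list mean as a covariate, and 2 as higher with the chondrocyte list mean. Of 12811 genes tested, 95 passed an adjusted p of 0.05, which is 0.742% of the genes. Higher in the mutant were 35 (0.273%) and lower were 60 (0.468%), and among those at least 2-fold changed 9 were higher and 23 lower. Each difference is mutant minus control on the log2 scale ± its standard error (SE) from limma, over 3 arrays a group, and every p was adjusted by the Benjamini-Hochberg method over all genes tested. The lowest array median was 6.93. Values at or below the array median may be largely background, which compresses differences, and 21 of the 95 genes lay there on every array of 1 group. In all 95 genes the 3 mutant and the 3 control values did not overlap, while over all genes tested the mutants lay above the controls in 13% and below them in 8.91%. The number of genes called depended on single arrays: it was 51 without control 1, 58 without control 2, 81 without control 3, 35 without mutant 1, 116 without mutant 2 and 48 without mutant 3. Of the 95, 30 were called whichever array was left out. Whether the replicate numbers pair the samples is not stated in the labels. Control 1 and mutant 1 deviated together from their group means only weakly (correlation 0.151). A fit that took the number as a block called 354 genes (2.76%), 180 higher (1.41%) and 174 lower (1.36%), all 95 among them. Genes called only with this block are named as such.

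**Figure D1:**
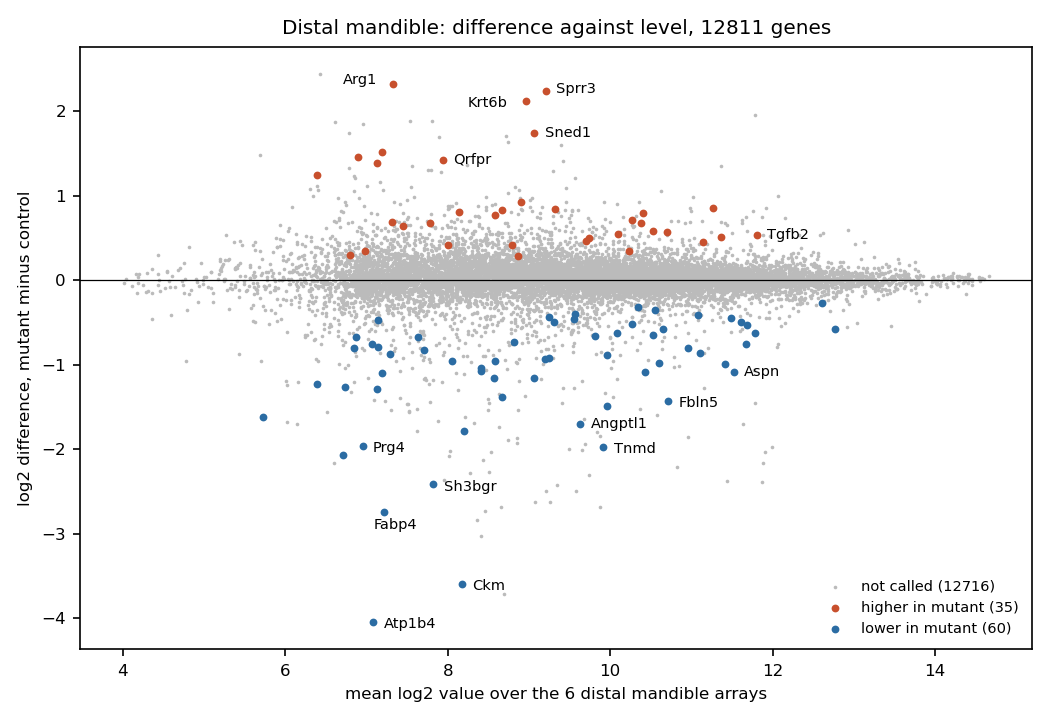
Difference between mutant and control (log2, vertical) against the mean log2 value over the 6 distal mandible arrays (horizontal) for the 12811 genes tested; coloured points passed an adjusted p of 0.05. The 60 lower genes reach -4.04 (Atp1b4), the 35 higher genes reach 2.33 (Arg1), and Tgfb2 is among the brightest of the genes that rose.

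The targeted gene was read by 3 probe sets. The brightest gave 12.07, 12.12 and 12.02 in controls 1 to 3 and 12.41, 12.36 and 12.37 in mutants 1 to 3. The mutants were all higher, by 0.31 ± 0.090, with an adjusted p of 0.119 that missed the threshold. A second probe set lay between 7.46 and 8.17 in all 6 arrays, and the third, at 4.33 to 4.58, was at background. Which exon the floxed alleles lose is not stated in the sources used here, so a probe set outside it checks neither the deletion nor the genotype. In a bulk sample the untargeted lineages also contribute receptor RNA, and fewer cells of a type and less RNA per cell cannot be told apart for any gene described here.

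Among 18 tested ligands, receptors and Smads, Tgfb2 alone rose and none fell, beside 0.742% of all genes, and the median difference was 0.087 against 0.026 over all genes. Tgfb2 encodes a secreted TGF-beta ligand made by jaw mesenchyme. Its values were 11.54, 11.45 and 11.61 in the controls and 12.01, 12.06 and 12.16 in the mutants. The groups did not overlap and each stayed within a narrow range. The rise was 0.54 ± 0.081 (adjusted p = 0.00203), and 3 further probe sets of the gene gave 0.51 to 0.63. Tgfb3, the ligand required for palate fusion, read 10.61, 10.60 and 10.45 in controls and 10.21, 10.28 and 10.12 in mutants. All its mutant values were lower, at -0.35 ± 0.091, with an adjusted p of 0.0767. It was called only with the replicate block (adjusted p = 0.0279). Tgfb1, Smad3, Smad4 and Smad7 differed by -0.22, 0.15, 0.052 and 0.10, and none of these passed.

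Of 27 genes known to respond to TGF-beta or to feed back on it, 3 fell, where 0.468% of all genes did, and none rose. The list median was -0.08 against 0.026 over all genes. The 3 were Scx, described with tendon, Tgfbi and Ccn1. Tgfbi, a secreted matrix protein first found as a TGF-beta induced gene, read 11.52, 11.34 and 11.22 in controls and 10.34, 10.80 and 10.54 in mutants. Its 3 mutant arrays lay together below the lowest control. The difference was -0.80 ± 0.13 (adjusted p = 0.00613), with 3 other probe sets at -0.87 to -0.70. Ccn1, a matricellular protein, gave 9.85, 9.69 and 9.59 in controls and 8.70, 8.83 and 8.83 in mutants, a difference of -0.92 ± 0.18 (adjusted p = 0.0188). The block added falls of Tnc (-0.91), Fn1 (-0.76), Col1a1 (-0.79) and Ldlrad4 (-0.36) and a rise of Snai2 (0.28). The established feedback genes Smad7 and Pmepa1 did not pass, at 0.10 and -0.23. Without mutant 1 the list held 1 call. Tgfbi lost its call without mutant 1 (adjusted p = 0.0503), and Ccn1 without control 1, control 2, mutant 1 or mutant 3 (adjusted p = 0.0644 to 0.0959).

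Muscle genes gave the largest falls of the comparison. Of 74 tested genes of muscle contraction and excitation, all 74 were lower in the mutant, as were 5331 of all 12811 genes. Their median was -1.21 against 0.026 over all genes, and 6 passed, where 0.468% of all genes were called lower. Ckm, the creatine kinase of muscle, read 10.79, 8.60 and 10.52 in controls and 6.41, 6.29 and 6.43 in mutants. Control 2 was the lowest control, yet all 3 mutants lay far below it and below their array medians. The difference was -3.59 ± 0.59 (adjusted p = 0.00586). Atp1b4, a muscle member of the sodium-potassium ATPase beta family that is found at the nuclear membrane, gave 9.64, 8.34 and 9.33 in controls and 5.13, 5.02 and 5.04 in mutants. All mutants were at the level of background, so that the fitted -4.04 ± 0.57 (adjusted p = 0.0017) may be held down by the floor of the scale.

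The promoters of Ckm and of Casq1, a calcium store gene described next, are shown because both fell and both hold an E-box of the form favoured by myogenic factors. Windows cover the 250 bases before the start of the gene, from RefSeq on build GRCm38.p6, and 12 of the 17 called members of the muscle, tendon, elastic fibre and hypoxia lists matched. Capitals mark CAGCTG, searched on both strands, which stood in 2 of 4 muscle members with a window and in 12.8% of 27025 genes. It also stood in 2 of 3 hypoxia members, Pdk1 and Ankrd37, which rose, and in 1 of 4 tendon members, Cilp. The wider E-box CANNTG, which contains it, is present in 66.0% of all windows. Ckm lies on the plus strand at chr7:19410844-19411093, and Casq1 on the minus strand at chr1:172219896-172220145. A match describes letters, not a bound site.
Ckm: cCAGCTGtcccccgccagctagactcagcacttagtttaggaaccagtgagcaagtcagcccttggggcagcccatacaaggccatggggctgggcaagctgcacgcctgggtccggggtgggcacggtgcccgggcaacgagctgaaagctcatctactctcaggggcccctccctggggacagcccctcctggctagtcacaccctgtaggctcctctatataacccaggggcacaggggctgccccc
Casq1: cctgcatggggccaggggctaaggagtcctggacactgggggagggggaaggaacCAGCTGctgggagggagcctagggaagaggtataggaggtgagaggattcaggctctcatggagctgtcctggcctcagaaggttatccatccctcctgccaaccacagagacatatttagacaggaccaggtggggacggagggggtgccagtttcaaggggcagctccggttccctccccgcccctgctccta

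The other 4 called members of the list include 3 that handle calcium in the fibre. Casq1, the calcium store of the sarcoplasmic reticulum, was at 9.65, 8.25 and 9.36 in controls and 7.28, 7.12 and 7.52 in mutants. A difference of -1.78 ± 0.36 (adjusted p = 0.022) left the mutants close to the array median. Trdn encodes triadin, which ties that store to the calcium release channel, and read 6.98, 5.87 and 6.73 against 5.02, 4.70 and 5.02. Only 1 control exceeded its array median, and the difference was -1.62 ± 0.34 (adjusted p = 0.0266). Ryr1, the release channel itself, Casq2 and Atp2a1, the calcium pump, were at -1.52 (adjusted p = 0.248), -1.64 (adjusted p = 0.346) and -1.53 (adjusted p = 0.211) and did not pass. Cacna2d1, an auxiliary subunit of the voltage-gated calcium channel, fell by 0.88 (SE 0.17, adjusted p = 0.015), and Sh3bgr, a protein of heart and skeletal muscle, fell by 2.41 (SE 0.53, adjusted p = 0.0357). Beyond the list, Pdlim3, a protein of the Z disc, went from 9.60, 8.81 and 9.65 to 7.94, 7.95 and 8.04 (-1.38 ± 0.29, adjusted p = 0.0296). Pdlim3 lost its call without control 1, control 3, mutant 1, mutant 2 or mutant 3 (adjusted p = 0.0701 to 0.142). Fhl1, a LIM protein of muscle, was lower, at -0.86 (adjusted p = 0.0147).

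Regulators of the muscle lineage gave no call. None of 23 tested myogenic regulatory genes passed, and their median was -0.07 against 0.026 over all genes. With 0.742% of all genes called, a list of this size would often hold none. Mymk, needed for fusion of myoblasts, was at -0.88 (adjusted p = 0.557), and Pax7, of muscle progenitors, at -0.40 (adjusted p = 0.759). With the replicate block 18 of the 74 contractile genes passed, all lower, where 1.36% of all genes were called lower. Among the 18 were Myh8 (-3.71), Tnnt3 (-2.83), Ldb3 (-2.73) and Myh7 (-2.08), which encode the perinatal myosin, fast troponin T, a Z disc protein and the slow myosin. The mean of the list, centred on the 12 mandible arrays, was 0.73, -0.061 and 0.61 in the controls and -0.61, -1.24 and -0.77 in the mutants. Control 2 was below the other controls and mutant 2 below the other mutants. The count of 6 became 2 without control 1 or mutant 1, and 3 without control 3, mutant 2 or mutant 3. Casq1, Trdn, Sh3bgr and Cacna2d1 lost their calls without control 1 (adjusted p = 0.131, 0.142, 0.164 and 0.0851). Casq1, Trdn and Sh3bgr also lost theirs without control 3 or any 1 mutant (adjusted p = 0.0592 to 0.12), and Cacna2d1 without mutant 1 (adjusted p = 0.0882). Ckm and Atp1b4 kept theirs whichever array was left out. With the muscle list mean as a covariate 223 genes were called (1.74%), 63 of the 95 among them. With the chondrocyte list mean as a covariate 420 genes were called (3.28%), and 55 of the 74 contractile genes passed, all lower, with a median of -1.99, where 2.4% of all genes were called lower. The chondrocyte list itself had a median of -1.50, so this fit does not measure muscle apart from cartilage. Whether the amount of muscle cut with each piece had a part in these falls was not tested.

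**Figure D2:**
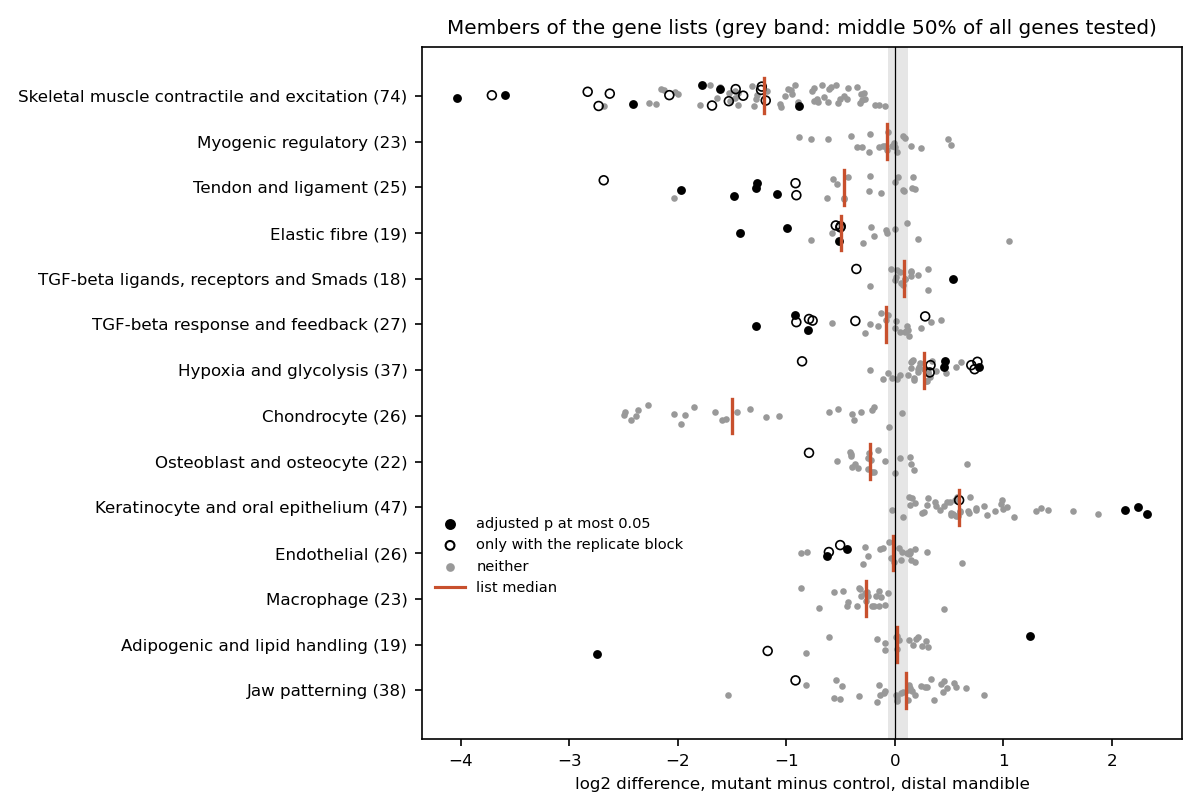
Difference between mutant and control in the distal mandible (log2, horizontal) for each tested member of 14 gene lists (rows, with the number tested); black points passed an adjusted p of 0.05, open circles passed only with the replicate block, and the red bar is the list median. The 74 muscle genes all lie below 0 with a median of -1.21, while the 23 myogenic regulators have a median of -0.07 and the 37 hypoxia genes one of 0.27.

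Of 25 tested tendon genes, 5 passed, all lower, where 0.468% of all genes were called lower. The list median was -0.47 against 0.026 over all genes. Scx is the transcription factor of tendon progenitors and depends on TGF-beta in the embryo. It read 7.69, 8.12 and 7.52 in controls and 6.60, 6.44 and 6.44 in mutants. All mutants had dropped below the array median, so that -1.28 ± 0.20 (adjusted p = 0.00383) may understate the difference. Tnmd encodes tenomodulin, a membrane protein of tendon cells, and gave 11.27, 11.27 and 10.16 in controls and 8.87, 9.09 and 8.83 in mutants. Control 3 was lower than the other controls and still above every mutant, with a difference of -1.97 ± 0.28 (adjusted p = 0.0017). Both genes kept their calls when any 1 array was left out, and with the muscle list mean as a covariate, where Scx was at -1.08 (adjusted p = 0.0159) and Tnmd at -1.79 (adjusted p = 0.00723). The list held 3 calls without control 1 or mutant 1.

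The other 3 encode matrix proteins. Fmod, fibromodulin, which binds collagen and TGF-beta, read 11.09, 10.69 and 10.33 in controls and 9.03, 9.42 and 9.21 in mutants (-1.48 ± 0.27, adjusted p = 0.0106). Its groups were well apart, and 5 further probe sets gave -1.20 to -1.15. Aspn, asporin, another small leucine-rich protein that binds TGF-beta, was at 11.98, 12.15 and 12.05 in controls and 10.97, 11.23 and 10.73 in mutants (-1.08 ± 0.14, adjusted p = 0.00108). Cilp, a matrix protein of cartilage and tendon, went from 7.70, 7.55 and 6.84 to 6.11, 6.07 and 6.11 (-1.27 ± 0.24, adjusted p = 0.015). The promoter window of Fmod, at chr1:134037004-134037253 on the plus strand, is shown because it holds CAGAC, the core letters of a Smad element, in capitals on either strand. Of 4 tendon members with a window 1 held these letters, as did 42.1% of all genes.
Fmod: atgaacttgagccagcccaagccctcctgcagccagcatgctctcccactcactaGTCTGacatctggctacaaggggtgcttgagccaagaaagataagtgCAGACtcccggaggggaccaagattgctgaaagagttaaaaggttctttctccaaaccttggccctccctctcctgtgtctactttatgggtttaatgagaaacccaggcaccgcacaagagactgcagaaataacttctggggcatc

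Further tendon genes followed with the block or did not pass. The block added Thbs4 (-2.68), Tnc (-0.91) and Six2 (-0.92). Mkx, a tendon transcription factor, did not pass, at -0.23 (adjusted p = 0.815). Fmod lost its call without control 1 or mutant 1 (adjusted p = 0.0685 to 0.0789), and Cilp without control 1, control 2, mutant 1 or mutant 3 (adjusted p = 0.0616 to 0.0924). Prg4, lubricin, made at joint and tendon surfaces, belongs to no list here; it read 8.29, 7.84 and 7.67 in controls and 5.63, 6.50 and 5.78 in mutants. The difference of -1.96 ± 0.37 (adjusted p = 0.0133) put every mutant below the array median, and the call was lost without control 1, mutant 1 or mutant 3 (adjusted p = 0.0692 to 0.0834).

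Of 19 tested elastic fibre genes, 3 fell, where 0.468% of all genes did, and none rose. Of the 19, 4 were above 0, and the median was -0.50 against 0.026 over all genes. Fbln5, which directs elastin onto microfibrils, read 11.52, 11.33 and 11.43 in controls and 9.92, 10.01 and 10.06 in mutants. Values within each group lay close together, with a difference of -1.43 ± 0.11 (adjusted p = 1.29e-06). Mfap4, a microfibril-associated protein, gave 11.90, 11.99 and 11.84 and 10.53, 11.31 and 10.91 (-0.99 ± 0.14, adjusted p = 0.0017). Eln, elastin itself, was at 10.64, 10.46 and 10.48 in controls and 9.91, 10.12 and 9.99 in mutants (-0.52 ± 0.11, adjusted p = 0.0234), and a second probe set gave -0.78. Fbn2, Lox and Emilin1, a microfibril protein, a cross-linking enzyme and an elastin-associated glycoprotein, joined only with the block, at -0.54, -0.50 and -0.50. Efemp1, fibulin 3, lay on the other side at 1.06 (adjusted p = 0.0763) and did not pass. Thsd4, which promotes microfibril assembly and stands outside the list, was lower, at -0.50 (adjusted p = 0.0357). Fbln5 kept its call without any 1 array, and Eln lost it without control 1, control 2, mutant 1 or mutant 3 (adjusted p = 0.0521 to 0.13).

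**Figure D3:**
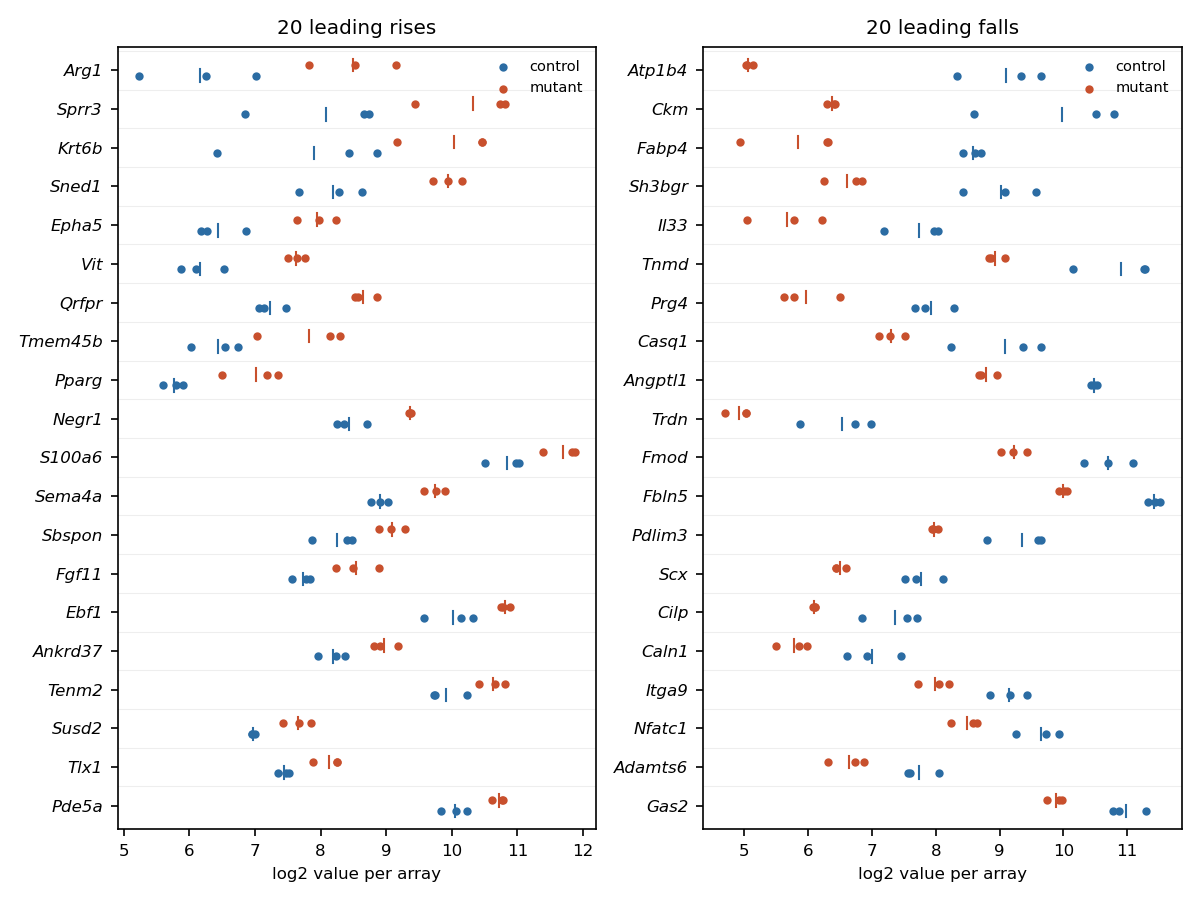
Value on each distal mandible array (log2, horizontal) of the 20 genes with the largest rises (left) and the 20 with the largest falls (right) among those called; blue points are the 3 controls, red points the 3 mutants, and vertical ticks the group means. In every gene the colours do not overlap, and among the falls Atp1b4, Ckm and Fabp4 have the largest differences, at -4.04, -3.59 and -2.74.

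Other matrix and adhesion genes moved both ways. Sned1, a secreted glycoprotein of the matrix, read 8.62, 8.29 and 7.67 in controls and 10.16, 9.71 and 9.95 in mutants, a rise of 1.74 ± 0.24 (adjusted p = 0.0017). Vit, vitrin, a matrix protein with von Willebrand factor A domains, gave 6.10, 6.53 and 5.88 and 7.76, 7.51 and 7.63 (1.46 ± 0.17, adjusted p = 0.000221); all controls were below the array median and all mutants above it. Both genes kept their calls without any 1 array. Sbspon and Sparcl1, also secreted, rose by 0.83 (SE 0.17, adjusted p = 0.0212) and 0.51 (SE 0.12, adjusted p = 0.048).

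Angptl1, a secreted angiopoietin-like protein, was at 10.44, 10.48 and 10.53 in controls and 8.71, 8.96 and 8.68 in mutants. It shared the smallest adjusted p with Fbln5 (1.29e-06), at -1.69 ± 0.13, and a second probe set gave -1.73. Itga9, an integrin chain that binds tenascin C and other matrix ligands, went from 9.16, 9.44 and 8.85 to 7.72, 8.20 and 8.05 (-1.16 ± 0.17, adjusted p = 0.00203). Collagens and proteases gave few calls. Of 25 collagens 1 passed, Col8a2 (-0.76 ± 0.13, adjusted p = 0.00613), and of 25 matrix proteases and inhibitors 1 passed, Adamts6 (-1.10 ± 0.16, adjusted p = 0.0017). Over all genes 0.742% passed. The protease Adamts8 lay outside the list and was lower, at -0.83 (adjusted p = 0.0017). Fam20a, a partner of the Golgi kinase that phosphorylates secreted proteins, Cthrc1, a collagen triple helix repeat protein, and Olfml3 were lower, at -0.79, -0.63 and -0.49. All 3 proteins are secreted or act in the secretory path. Pamr1, Fibin and Zfp469, the last a gene tied to brittle cornea, fell too, at -1.07, -0.98 and -0.95.

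Genes known to respond to low oxygen were among the rises. Of 37 tested genes of the hypoxia response and glycolysis, 3 rose, where 0.273% of all genes did, and none fell. Above 0 were 32, as were 7479 of all 12811 genes, and the median was 0.27 against 0.026 over all genes. Ankrd37, a direct target of the hypoxia-inducible factor, read 7.96, 8.24 and 8.37 in controls and 8.82, 8.91 and 9.18 in mutants (0.78 ± 0.16, adjusted p = 0.0252). Pdk1, the kinase that turns pyruvate away from the mitochondrion, gave 10.90, 10.98 and 10.87 and 11.34, 11.41 and 11.36 (0.45 ± 0.091, adjusted p = 0.0217). Vegfa, the main growth factor of blood vessels, was at 9.36, 9.50 and 9.57 in controls and 9.84, 9.91 and 10.07 in mutants (0.46 ± 0.10, adjusted p = 0.027). In each of the 3 genes the lowest mutant lay above the highest control.

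Windows of Pdk1, at chr2:71872974-71873223 on the plus strand, and Ankrd37, at chr8:45999851-46000100 on the minus strand, are shown because they hold the core of the hypoxia element. Capitals mark ACGTG or GCGTG on either strand. Among 3 hypoxia members with a window, 1 held ACGTG, as did 16.6% of all genes, and 2 held GCGTG, as did 28.2% of all genes. Ankrd37 had 4 matches, of which 2 overlap on opposite strands.
Pdk1: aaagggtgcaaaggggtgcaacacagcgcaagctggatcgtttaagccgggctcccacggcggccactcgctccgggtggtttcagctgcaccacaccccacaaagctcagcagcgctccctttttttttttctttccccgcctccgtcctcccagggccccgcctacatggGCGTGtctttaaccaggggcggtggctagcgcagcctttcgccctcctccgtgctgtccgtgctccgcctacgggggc
Ankrd37: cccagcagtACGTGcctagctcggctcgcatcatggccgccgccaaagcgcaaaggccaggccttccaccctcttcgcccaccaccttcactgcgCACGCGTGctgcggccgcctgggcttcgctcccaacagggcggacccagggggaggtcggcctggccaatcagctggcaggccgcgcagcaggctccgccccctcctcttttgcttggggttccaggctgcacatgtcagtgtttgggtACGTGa

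The block raised the counts in the hypoxia list to 8 higher and 1 lower, beside 1.41% of all genes higher and 1.36% lower. It added Slc2a1, the glucose transporter (0.74), Pfkfb3 (0.71), Egln3 (0.76), Ddit4 (0.33) and Kdm3a (0.32), while Plod2, a collagen lysyl hydroxylase, was lower (-0.85). Outside the list, Cox4i2, a subunit form of cytochrome oxidase favoured at low oxygen, rose by 0.35 (SE 0.076, adjusted p = 0.0357). None of the 3 calls held without control 1 (adjusted p = 0.141 for Ankrd37, 0.0862 for Pdk1 and 0.143 for Vegfa), and without mutant 1 or mutant 3 the count was 0 as well. With control 2 left out 1 remained, and with mutant 2 left out there were 1 higher and 1 lower.

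Few blood vessel genes passed. Of 26 endothelial genes 2 passed, both lower, where 0.468% of all genes were called lower. The list median was -0.02 against 0.026 over all genes. Kdr, the main receptor of Vegfa, read 9.49, 9.47 and 9.44 in controls and 8.89, 9.17 and 9.03 in mutants (-0.44 ± 0.088, adjusted p = 0.0228). Fli1, an ETS factor of endothelium and blood, gave 10.39, 10.54 and 10.26 and 9.42, 10.04 and 9.86 (-0.62 ± 0.11, adjusted p = 0.0117). Erg and Cldn5 joined them only with the block (-0.61 and -0.50), while Cdh5 and Flt1 were at 0.14 and 0.14. Gpr182, a receptor of lymphatic and sinusoidal endothelium, was lower, at -0.67 (adjusted p = 0.0069). The list kept 1 call without control 1, control 3, mutant 1 or mutant 3. Without control 2 neither Fli1 (adjusted p = 0.0716) nor Kdr (adjusted p = 0.079) passed.

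Among the called genes, those of epithelium had the largest rises. Of 47 tested genes of keratinocytes and oral epithelium, 3 rose, where 0.273% of all genes did, and none fell. Above 0 were 46, beside 7479 of all 12811 genes, and the median was 0.59. Arg1, arginase, which the list includes as a gene of stratified epithelium and which macrophages also make, read 6.25, 5.24 and 7.01 in controls and 8.52, 7.82 and 9.14 in mutants. Replicate 2 was lowest in both groups, and the difference was 2.33 ± 0.38 (adjusted p = 0.00577). Krt6b, a keratin of suprabasal oral epithelium, gave 8.43, 6.42 and 8.86 in controls and 10.46, 9.17 and 10.46 in mutants. The difference of 2.12 ± 0.43 (adjusted p = 0.022) again set a low control 2 and mutant 2 beside the others. Sprr3, a protein of the cornified envelope in oral and oesophageal lining, was at 8.66, 6.85 and 8.74 and 10.74, 9.43 and 10.80 (2.24 ± 0.50, adjusted p = 0.0433).

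The keratinocyte list moved with the genotype and with the replicate number. Its mean, centred on the 12 mandible arrays, was 0.51, -0.21 and 1.04 in controls 1 to 3 and 1.37, 0.73 and 1.50 in mutants 1 to 3, so the groups overlap, with control 3 above mutant 2. General epithelial genes were higher without passing, as with Trp63 (0.59, adjusted p = 0.425), Dsp (0.46, adjusted p = 0.374) and Esrp1 (0.48, adjusted p = 0.451), and Jup passed only with the block (0.59, adjusted p = 0.0271). With the list mean as a covariate, a setting chosen after seeing the data, 46 genes were called in place of 95, and 37 of the 95 remained. Arg1 kept its call there (1.86, adjusted p = 0.0353), while Krt6b (1.43, adjusted p = 0.0908) and Sprr3 (1.30, adjusted p = 0.101) did not. These 3 genes are members of the list, so the covariate holds part of their own change and a smaller difference is built in. The list held 1 call without mutant 1 or mutant 3. Sprr3 also lost its call without control 1, control 2, mutant 1 or mutant 3 (adjusted p = 0.0621 to 0.204), and Krt6b without mutant 1 or mutant 3 (adjusted p = 0.124 to 0.132). Tmem45b, a membrane protein that lies outside the list, rose by 1.39 (SE 0.29, adjusted p = 0.027) and likewise missed the threshold with the covariate (0.90, adjusted p = 0.11).

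**Figure D4:**
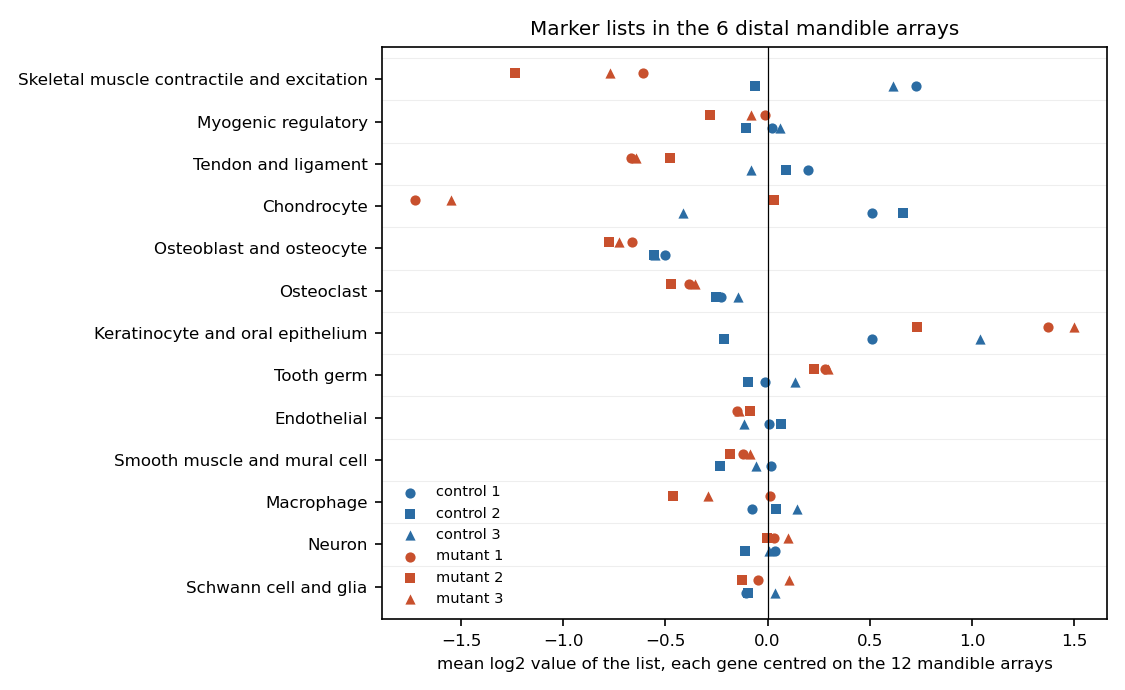
Mean of each marker list on each distal mandible array (log2, each gene centred on the 12 mandible arrays, horizontal); blue is control and red mutant, with circles, squares and triangles for replicates 1, 2 and 3. The muscle list separates the genotypes, the keratinocyte list overlaps between them with replicate 2 lowest in both, and in the chondrocyte list mutant 2 lies within the range of the controls.

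Further genes rose outside the groups described so far. Epha5, an ephrin receptor of axon guidance, read 6.17, 6.86 and 6.26 in controls and 7.64, 7.98 and 8.24 in mutants (1.52 ± 0.24, adjusted p = 0.00305); the controls were below the array median and the mutants above, and no other of 18 ephrins and Eph receptors passed. Qrfpr, the receptor of the neuropeptide QRFP, was at 7.48, 7.07 and 7.14 and 8.56, 8.53 and 8.86 (1.42 ± 0.17, adjusted p = 0.000371). Negr1, a cell adhesion molecule of neurons, gave 8.36, 8.70 and 8.25 and 9.34, 9.36 and 9.38 (0.92 ± 0.16, adjusted p = 0.00719). These 3 kept their calls when any 1 array was left out.

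Tenm2, a teneurin of cell contacts, and the semaphorins Sema4a and Sema4g rose by 0.72, 0.84 and 0.42. Beside them, none of 18 tested neuron markers passed, and their median was 0.022. Tlx1, a homeobox factor needed for the spleen, went from 7.47, 7.35 and 7.52 to 8.26, 7.88 and 8.25 (0.68 ± 0.14, adjusted p = 0.0248), and lost its call without control 1, control 2, mutant 1 or mutant 3 (adjusted p = 0.0824 to 0.14). Fgf11, an intracellular member of the FGF family, and Pde5a, which breaks down cyclic GMP, rose by 0.81 and 0.67; Fgf11 lost its call without control 1, control 2, control 3, mutant 1 or mutant 3 (adjusted p = 0.094 to 0.243). Bmf, which promotes cell death, and Ldb2, a LIM domain binding cofactor, rose by 0.35 and 0.58. S100a6, a calcium-binding protein, was higher by 0.86 (adjusted p = 0.043), and lost its call without control 1, control 2, control 3, mutant 1 or mutant 3 (adjusted p = 0.0635 to 0.204).

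Genes of fat, immune cells and bone resorption also passed. Pparg and Ebf1, transcription factors that promote fat cell formation, rose: Pparg from 5.90, 5.79 and 5.60 to 7.19, 6.49 and 7.35 (1.25 ± 0.22, adjusted p = 0.00978) and Ebf1 by 0.79 (SE 0.15, adjusted p = 0.0154). Fabp4, a fatty acid carrier of fat cells and of capillary endothelium, fell instead, from 8.70, 8.43 and 8.62 to 6.31, 4.93 and 6.29. Pparg was below the array median in all controls and in mutant 2, and lost its call without mutant 1 or mutant 3 (adjusted p = 0.0674 to 0.0692). All mutant values of Fabp4 were below the array median (-2.74 ± 0.47, adjusted p = 0.00719), and Cd36, a fatty acid transporter, was lower only with the block (-1.17, adjusted p = 0.0405). The list of fat genes as a whole had a median of 0.022. Il33, a cytokine of barrier and stromal cells, read 7.98, 7.20 and 8.04 in controls and 5.77, 5.04 and 6.21 in mutants (-2.06 ± 0.47, adjusted p = 0.048); it lost its call without control 1, control 2, control 3, mutant 1, mutant 2 or mutant 3 (adjusted p = 0.0624 to 0.169).

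Ccr2, a chemokine receptor of monocytes, and Clec4a2, a lectin of myeloid cells, were lower, at -0.80 (adjusted p = 0.00849) and -0.75 (adjusted p = 0.0248), with every mutant below its array median. None of 23 macrophage genes passed, 22 of them were below 0 beside 5331 of all 12811 genes, and their median was -0.26. Nfatc1, the master factor of osteoclasts, which also acts in other cells, went from 9.73, 9.93 and 9.26 to 8.24, 8.64 and 8.58 (-1.15 ± 0.20, adjusted p = 0.00719). It lost its call without mutant 1 (adjusted p = 0.0581). The other 9 osteoclast genes tested did not pass, with Acp5 at -0.12 and Ctsk at -0.10. The smallest falls that passed were of the endoplasmic reticulum, Pdia6, a disulfide isomerase (-0.26, adjusted p = 0.0188), and Eif2ak3, the kinase PERK (-0.32, adjusted p = 0.0461). Other falls concern genes of the cytoskeleton or cell signals: Gas2, an actin-associated protein (-1.09), Rhob, a small GTPase (-0.44), Stk26, a kinase (-0.53), and Samd4, an RNA-binding repressor (-0.58).

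All but 1 of 26 tested chondrocyte genes were below 0, beside 5331 of all 12811 genes, with a median of -1.50, yet none passed, alone or with the block. With the muscle list mean as a covariate 15 of the 26 passed, all lower, with a median of -2.45, where 0.937% of all genes were called lower. The muscle list itself differed between mutant and control, with a median of -1.21, so this fit does not measure cartilage apart from muscle. With the chondrocyte list mean as the covariate 2 of the 26 passed, both higher. Col2a1, the main cartilage collagen, read 13.43, 13.55 and 12.19 in controls and 9.68, 12.71 and 9.62 in mutants. Mutants 1 and 3 were low, whereas mutant 2 lay within the range of the controls, which gave -2.39 ± 1.06 and an adjusted p of 0.36. Acan, aggrecan, also had mutant 2 within the range of the controls, at 11.02, 11.31 and 9.33 and 6.86, 10.05 and 7.46 (-2.43 ± 1.18, adjusted p = 0.409). The list mean was 0.51, 0.66 and -0.41 in controls and -1.72, 0.031 and -1.55 in mutants. Without mutant 2 the median of the list was -1.92 and the count was still 0. Of 22 bone genes none passed and the median was -0.23; Sp7, a bone-forming transcription factor, was at -0.34, and Col1a1, at -0.79, passed only with the block.

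No tooth or patterning gene passed, where 0.742% of all genes did. Lists of this size would often hold none at that share. The 27 tooth germ genes had a median of 0.29, with 22 above 0 beside 7479 of all 12811 genes, and Shh, made by the tooth epithelium, was at 0.65 (adjusted p = 0.609). The 38 jaw patterning genes had a median of 0.10, and Dlx2, Dlx3 and Dlx6 were at 0.65, 0.37 and -0.56. Of the other pathways, no member of the BMP (30), Wnt (39), hedgehog (15) or FGF (24) lists passed, nor of the 38 cell cycle genes, whose median was -0.10. At a share of 0.742%, lists of these sizes would often hold none as well. Of the 38 cell cycle genes 35 were below 0, beside 5331 of all 12811 genes. In the proximal mandible 27 of them passed as lower, where 3.07% of all genes did. With the block, Lrp4 was higher (0.43) and Lgr5 lower (-0.85) in the Wnt list, and Six2 lower in the patterning list.

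A further group of called genes has roles that are less tied to the jaw. Caln1, a calcium sensor of neurons, read 6.93, 7.45 and 6.62 in controls and 5.98, 5.49 and 5.85 in mutants (-1.23 ± 0.21, adjusted p = 0.00719). Only 1 control was above its array median. Spsb4, a substrate adaptor of ubiquitin ligases, gave 8.91, 9.16 and 8.70 and 7.70, 8.13 and 7.83 (-1.04 ± 0.15, adjusted p = 0.00203), and Vstm2b, a membrane protein, 8.43, 8.61 and 8.55 and 7.52, 7.46 and 7.76 (-0.95 ± 0.12, adjusted p = 0.000471). Both kept their calls without any 1 array. Klhl4 (-0.94), Gsg1l, an auxiliary subunit of AMPA receptors (-0.87), Plaat3, a phospholipase (-0.73), Cys1, a protein of cilia (-0.67), Tmem255a (-0.66) and Dclk1, a microtubule-associated kinase (-0.65), fell. H2az2, a histone variant (-0.58), Bbox1, of carnitine synthesis (-0.47), St8sia4, which makes polysialic acid (-0.46), Fam3c (-0.41), Ptprm, a receptor phosphatase (-0.39), and 1810055G02Rik (-0.35) fell by less. The remaining rises were Susd2 (0.69), Exoc3l4 (0.65), Tcim (0.58), Cnrip1 (0.55), Stom, a membrane scaffold (0.50), Zkscan4 (0.42), Frg2f1 (0.30) and Ccdc136 (0.29). Of the 95 genes, 31 had a second probe set above the array median, and 53 of these 54 probe sets had the same sign as the one used. The exception was 1 of 5 for Dclk1, at 0.091. The 30 genes called whichever array was left out were Arg1, Sned1, Epha5, Vit, Qrfpr, Negr1, Tgfb2, Samd4, Tmem255a, Gpr182, Col8a2, Ccr2, Adamts8, Gsg1l, Klhl4, Vstm2b, Mfap4, Spsb4, Aspn, Gas2, Adamts6, Itga9, Caln1, Scx, Fbln5, Angptl1, Tnmd, Fabp4, Ckm and Atp1b4, and each other called gene lost its call without at least 1 array. The same 18 of the 95 genes were called in each of the 21 alternative settings, among them Fbln5, Angptl1, Aspn, Tnmd, Scx, Atp1b4, Ckm, Tgfb2, Sned1, Vit and Epha5.

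The same contrast was set beside the other end of the mandible and beside the distal maxilla, which have control arrays of their own. The titles do not say whether same-numbered pieces of a genotype come from the same embryos. A fit with genotype and number as a random block gave such arrays a correlation of 0.342. Calls and signs shared between pieces may therefore not be independent. In the proximal mandible 556 genes passed (4.34%), 163 higher (1.27%) and 393 lower (3.07%), and 44 of the 95 did so in the same direction, which is 46.3% of the distal mandible's calls and 7.91% of the proximal ones. Atp1b4, Ckm, Scx and Fmod differed there by -3.17, -2.88, -1.39 and -1.28, beside -4.04, -3.59, -1.28 and -1.48 in the distal piece. The distal maxilla had 25 calls (0.195%), of which 14 were higher (0.109%) and 11 lower (0.0859%). Of these 25, 11 were among the 95 in the same direction, which is 11.6% of the distal mandible's calls and 44.0% of the maxilla's. The muscle list had a median of -0.96 in the proximal mandible and 0.54 in the distal maxilla, where Ckm was at 0.28 and Atp1b4 at 0.56. In the proximal maxilla its median was 1.53 and 45 of the 74 passed as higher, beside 12.2% of all genes there. Fbln5, Mfap4, Col8a2, Itga9, Sned1, Vit, Tmem255a and H2az2 passed the same way in all 4 regions, of which the proximal maxilla had 23.3% of genes called. Among them Fbln5 gave -1.43, -1.92, -0.80 and -0.51 in the distal mandible, proximal mandible, distal maxilla and proximal maxilla, and Sned1 gave 1.74, 1.72, 1.26 and 1.58.

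**Figure D5:**
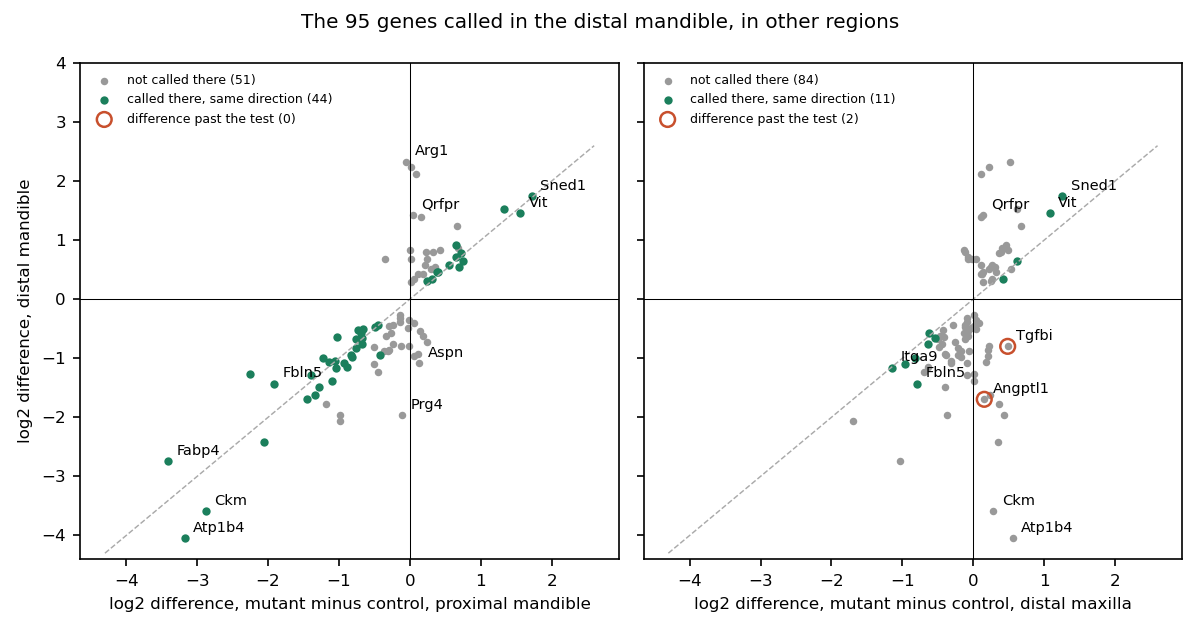
Difference between mutant and control of the 95 genes in the distal mandible (log2, vertical) against the same difference in the proximal mandible (left) and in the distal maxilla (right, log2, horizontal). Signs were shared by 86 genes with the proximal mandible and by 71 with the distal maxilla, where Atp1b4 and Ckm lie right of 0.

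Whether the effect differed between the pieces was tested directly. Between the ends of the mandible 0 of 12811 genes passed by limma (1025 at an unadjusted p under 0.05). The nearest among the called genes were Qrfpr (1.38, adjusted p = 0.118), Aspn (-1.22, adjusted p = 0.118) and Tlx1 (1.03, adjusted p = 0.171). Without mutant 2 the count was 5, with the replicate block 1, and with only the 12 mandible arrays 11. The epithelial rises had no counterpart in the proximal values, with Arg1 at -0.052, Krt6b at 0.082 and Sprr3 at 0.021, but their differences between ends did not pass (adjusted p = 0.309, 0.408 and 0.437). The keratinocyte list was lower in every proximal array than in any distal one. Its centred mean there was -1.09 to -0.64 in controls and -0.82 to -0.61 in mutants. Whether a low level hid a rise in the proximal piece was not tested.

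Between the distal ends of the jaws 2 genes passed (0.0156%). Angptl1 fell by 1.69 in the distal mandible and was at 0.16 in the distal maxilla, a difference of -1.85 (adjusted p = 0.000104). It also fell in the proximal mandible, at -1.45 (adjusted p = 1.02e-05), and the ends of the mandible differed by -0.24 (adjusted p = 0.717). Tgfbi was at -0.80 and 0.49, a difference of -1.28 (adjusted p = 0.0134). In the proximal mandible Tgfbi was at -0.12 and did not pass (adjusted p = 0.686), and in the proximal maxilla it was higher in the mutant, at 0.56 (adjusted p = 0.00622). Atp1b4 (-4.60, adjusted p = 0.0848) and Qrfpr (1.28, adjusted p = 0.136) did not reach the threshold. The count was 1 without control 1, mutant 1 or mutant 3, and 4 with the replicate block.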

How the data were processed

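Total RNA of the distal mandible and of 3 other jaw pieces was hybridised to Affymetrix arrays. The authors deposited 1 log2 value per probe set and array, made with RMA and Partek 6.6 per the submitters' processing notes. Neither tool's settings nor a genome build is given in the sources used here. That values are log2 was read from their range, 3.44 to 14.8. Value columns belonging to no listed sample numbered 0.

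The platform's annotation table gave the gene names. Of 45101 probe sets, 34945 had 1 symbol, and the set of highest mean over all arrays stood for each of 18193 genes. A gene was tested when above the array median on at least 3 of 24 arrays, which left 12811. limma 3.58.1 in R 4.3.3 (lmFit, eBayes, two-sided) fitted all 24 arrays in 8 groups, with Benjamini-Hochberg adjustment over all genes and a threshold of 0.05. The script was tested on simulated data. Precision is limited by the number of arrays, with a median SE of 0.106 (log2). A fit of only the 6 distal mandible arrays had a median SE of 0.0867.

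Same-numbered mutant and control arrays deviated together from their group means (correlations 0.151, 0.506 and 0.488). For replicate 1 this was little above 2 pairs of unlike number, control 1 with mutant 2 (0.129) and control 3 with mutant 1 (0.149). The other unlike pairs were negative. Deviations from a group mean cancel out over its 3 arrays. Positive same-numbered pairs therefore make unlike pairs negative on balance by construction, and the negative values add no evidence of pairing. All same-numbered correlations were above 0.1, so a fit with the replicate number as a block was run as an alternative. The numbers come from the labels, whose array names also run in series by replicate number. Other alternatives were fewer arrays, other filters, scalings and probe set rules, array weights, muscle, chondrocyte or epithelial list means as covariates, and leaving out each array.

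The arrays compared and the 32 gene lists (931 entries, 811 tested) were chosen with earlier results of these data known, so lists are described by counts and medians and not tested. Named were called genes, with array values for the 20 largest rises and falls without overlap as far as they fit the roles described, Tgfbr2, up to 4 members of each list described (more where a fit with the block added some) and interaction genes. Promoter windows came from RefSeq, and the first listed start of a gene was used.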

Additional observations from a re-analysis of the deposited data

Results flagged for a closer look

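The effect of the mutation differed between the distal mandible and the distal maxilla, by the test of the difference itself, in 2 genes. For Angptl1 the mandible effect minus the maxilla effect was -1.85 (log2), and for Tgfbi it was -1.28 (log2). Both fell in the distal mandible and neither passed in the distal maxilla. Angptl1 also fell in the proximal mandible, at -1.45 (adjusted p = 1.02e-05 by limma). In the proximal maxilla Tgfbi passed the other way, at 0.56 (adjusted p = 0.00622 by limma).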

How the results depend on the processing

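The count of 95 called genes was 292 with only the 12 mandible arrays, 354 with the replicate block, 595 with the block in the 6 distal mandible arrays alone, 984 with array weights, 223 with the muscle list mean and 420 with the chondrocyte list mean as a covariate, 46 with the epithelial list mean, and 35 to 116 with 1 array left out. The block over all 24 arrays ended no call among the 95, while the block in the 6 arrays alone kept 72 and ended 23. Genotype and number as a random block called 71 genes, 64 of the 95 among them, so that 31 calls were lost. The 0 genes that differed between the ends of the mandible became 11 with only the 12 mandible arrays, 1 with the replicate block, 16 with genotype and number as a random block, 80 with array weights, and 0 to 5 with 1 array left out. The 2 genes that differed between the distal ends of the jaws became 4 with the replicate block, 6 with the random block, 51 with array weights, 9 with the muscle and 65 with the chondrocyte covariate, 6 with every probe set on its own, 1 with the epithelial covariate, and 1 or 2 with 1 array left out. The cause of these shifts was not tested. With only the 6 distal mandible arrays 110 genes were called, 36 of them among the 95. Over called genes and settings, 1567 of 2085 checks kept the call, 518 lost it and none changed direction. The epithelial covariate was added after seeing the data. Signals near the array median limit what can be read for dim genes.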
